A study of Mus musculus with 12 samples.

Results

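Dendritic cell lineage and maturation genes were followed in whole mouse lung. The 9 genes are Flt3, Xcr1, Clec9a, Batf3, Irf8, Irf4, Cd83, Fscn1 and Cd1d1, chosen by name among the 734 endogenous genes of a NanoString nCounter panel for innate immunity, a method that reads each RNA by counting a barcoded probe hybridised to it. Mice of 3 groups were dosed intranasally for 8 weeks, 2 doses a week, and RNA came from 1 lung lobe of each. KO_DRA (n = 5, libraries 8 to 12) are Chil4-deficient mice given DRA allergens, B6_DRA (n = 5, libraries 3 to 7) are wild type littermates given the same allergens, and B6_PBS (n = 2, libraries 1 and 2) are wild type littermates given PBS. The labels expand neither DRA nor how Chil4 was altered, and call the deficient mice both knockdown and KO. No Chil4-deficient mice given PBS were among the 12 libraries, and the age of the mice was not used here.

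All 9 genes passed the filter on low counts, as did 665 of the 734 genes of the panel. Their counts ran from 14, for Xcr1 and Batf3, to 372, for Cd83. The lowest value of any of them was 2.16 times the background of its library (2 SD over the mean of its 8 negative control probes). Levels are given as CPM, edgeR's counts scaled to TMM-adjusted library sizes, and are compared between libraries for 1 probe, never between probes. Total counts per library ran from 320290 to 658293 in KO_DRA, from 367744 to 673201 in B6_DRA and were 389757 and 392701 in B6_PBS. The Chil4 probe gave 111850 counts in the library labelled KO_DRA 8, the highest of all, 5676 to 24313 in KO_DRA 9 to 12, 13020 to 89957 in B6_DRA, and 5121 and 4406 in B6_PBS. In the fit described below Chil4 was at -0.92 on the log2 scale in KO_DRA against B6_DRA (adjusted p = 0.529 by edgeR) and at 3.03 in KO_DRA against B6_PBS (adjusted p = 0.158 by edgeR). In raw counts all 5 KO_DRA libraries lay above both B6_PBS libraries, and KO_DRA 8 and 11 above B6_DRA 5. The Chil3 probe gave much the same log2 estimates, -0.86 in KO_DRA against B6_DRA and 3.09 in KO_DRA against B6_PBS. Chil3, Chil4 and Retnla together made up 43.6% of the counts of KO_DRA 8, the largest share of the 12 libraries. The Chil4 probe therefore did not bear out the label of the KO_DRA group, most of all that of KO_DRA 8, but it cannot settle that label. Whether it also reads Chil3 RNA was not tested. Where on the RNA it binds relative to the altered part of the gene is not known here. Directions given for KO_DRA rest on the labels, and the main KO_DRA values are also given without the library labelled KO_DRA 8.

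Dendritic cells take up antigen, mature and carry it to lymph nodes, where they prime T cells. FLT3, the receptor for FLT3 ligand, drives their development from bone marrow precursors. The conventional type known as cDC1 depends on the transcription factors IRF8 and BATF3, and bears the chemokine receptor XCR1 and CLEC9A, a lectin receptor for dead cell remnants. The other conventional type, cDC2, depends in large part on IRF4. CD83 is a surface protein of mature cells, and FSCN1 encodes fascin, an actin bundling protein of the dendrites of mature cells. CD1d, encoded by Cd1d1, presents lipid antigen to natural killer T cells. Several are not restricted to dendritic cells: IRF4, IRF8 and CD83 are also made by B cells, IRF4 by T cells and IRF8 by monocytes and macrophages. In whole lung, fewer cells of a type and less RNA per cell cannot be told apart.

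In allergen-treated wild type mice, Irf4, Batf3, Cd83, Xcr1 and Flt3 rose about 2-fold to 4-fold against PBS, Cd1d1 fell slightly, and Clec9a, Irf8 and Fscn1 did not pass the test. The 9 genes were read out of 1 edgeR quasi-likelihood fit of all 12 libraries, with p-values adjusted over the 665 genes tested and a threshold of 0.05. Of the 9, 6 passed, where 41.8% of all genes tested passed. Of these 5 rose, where 24.1% of all genes rose, and 1 fell, where 17.7% fell. Their median log2 fold change was 1.08, beside 0.01 over all genes tested. The B6_DRA and B6_PBS levels did not overlap for 7 of the 9, where this held for 59.7% of all genes tested. Of the 7, 6 were higher in B6_DRA, where 31.6% of all genes were, and 1 was lower, where 28.1% were.

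**Figure D1:**
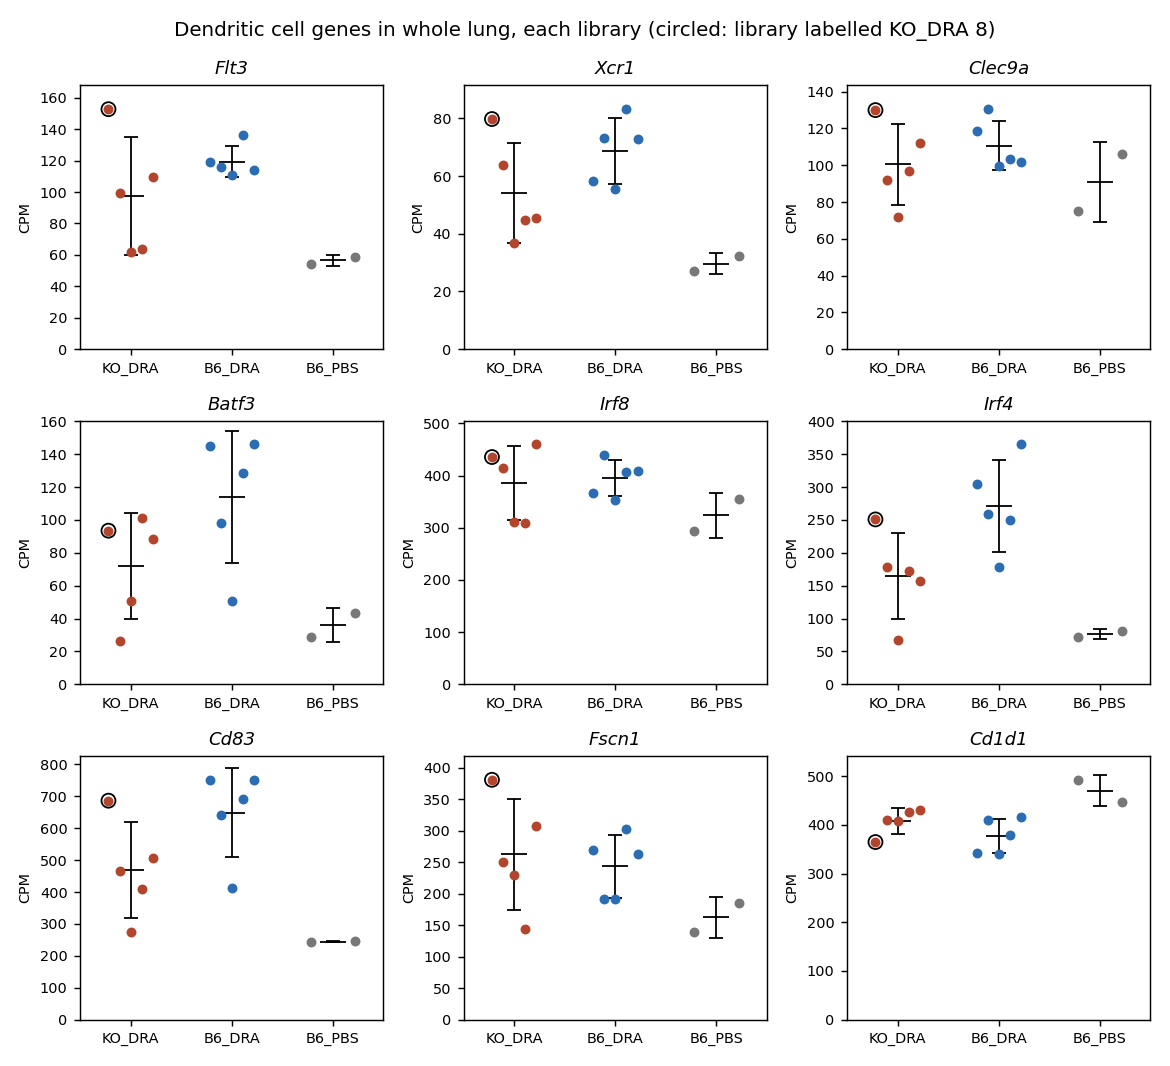
Level of each gene in CPM (vertical axis, from 0) in every library of KO_DRA, B6_DRA and B6_PBS, with the mean and SD as bars and the library labelled KO_DRA 8 circled. Irf4, Cd83, Flt3 and Xcr1 lie higher in all 5 B6_DRA libraries than in both B6_PBS libraries, and Cd1d1 lies lower.

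Flt3, the growth factor receptor gene, stood at 118.9, 116.2, 110.9, 136.2 and 114.2 CPM in B6_DRA 3 to 7, against 54.1 and 58.8 CPM in B6_PBS. All B6_DRA libraries lay above both B6_PBS libraries, and they differed little from one another. The log2 fold change was 1.08 (SE 0.322, adjusted p = 0.0281 by edgeR). It was 1.08 without B6_DRA 3 and 1.03 without B6_DRA 6, with adjusted p = 0.0503 and 0.0504, and with library size alone, no TMM, it was 0.42 (adjusted p = 0.277).

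Among the cDC1 genes, Xcr1 and Batf3 rose while Clec9a and Irf8 did not pass. Xcr1, whose ligand is a chemokine of activated lymphocytes, stood at 58.45, 73.3, 55.4, 83.2 and 72.95 CPM in B6_DRA, against 27.05 and 32.2 CPM in B6_PBS. The groups did not overlap, and the log2 fold change was 1.20 (SE 0.316, adjusted p = 0.0204 by edgeR; 0.54 and adjusted p = 0.182 with library size alone). Its counts were low, 14 to 41 in all libraries. Batf3 stood at 145.1, 98.3, 50.8, 128.6 and 145.9 CPM in B6_DRA, against 29.0 and 43.6 CPM in B6_PBS. B6_DRA 5 lay near the B6_PBS libraries and the other B6_DRA libraries well above. Batf3 rose 3.1-fold, or 1.63 ± 0.54 (SE) in log2 units, with edgeR adjusted p = 0.0344. The Batf3 call was lost without B6_DRA 3, 4, 6 or 7, with log2 fold changes of 1.52 to 1.68 and adjusted p from 0.0506 to 0.0635, with limma-voom (1.54, adjusted p = 0.0613) and with library size alone (0.91, adjusted p = 0.0878).

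Clec9a stood at 118.9, 130.5, 99.3, 103.4 and 101.5 CPM in B6_DRA, against 75.3 and 106.2 CPM in B6_PBS. The groups overlapped, with 2 of 5 B6_DRA libraries above both B6_PBS libraries, and the log2 fold change was 0.29 (SE 0.235, adjusted p = 0.319 by edgeR). Irf8 stood at 366.8, 439.9, 353.4, 406.0 and 409.1 CPM in B6_DRA, against 293.6 and 354.5 CPM in B6_PBS. B6_DRA 5 lay within the B6_PBS range, and the log2 fold change was 0.29 (SE 0.178, adjusted p = 0.199 by edgeR). Both estimates turned negative with library size alone, at -0.35 and -0.36, a scaling that moved the median of all genes by -0.63.

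Irf4 showed the highest fold change of the 9 genes. It stood at 304.4, 259.3, 177.9, 249.7 and 364.7 CPM in B6_DRA, against 71.5 and 81.5 CPM in B6_PBS. Even the lowest B6_DRA library, B6_DRA 5, was over both B6_PBS libraries by a wide margin. Irf4 rose 3.53-fold, or 1.82 ± 0.422 (SE) in log2 units, with edgeR adjusted p = 0.0163. With library size alone the log2 fold change was 1.13 (adjusted p = 0.0277).

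Of the maturation genes, Cd83 rose and Fscn1 did not pass. Cd83 stood at 749.8, 640.1, 413.5, 691.0 and 751.7 CPM in B6_DRA, against 243.4 and 246.4 CPM in B6_PBS. The groups lay far apart, B6_DRA 5 again lowest of its group. Cd83 rose 2.65-fold, or 1.4 ± 0.32 (SE) in log2 units, with edgeR adjusted p = 0.0156. It was 0.71 with library size alone (adjusted p = 0.0415). Fscn1 stood at 270.1, 191.3, 191.7, 302.6 and 263.2 CPM in B6_DRA, against 139.1 and 185.8 CPM in B6_PBS. The groups did not overlap but 2 B6_DRA libraries were close to B6_PBS 2, and the log2 fold change was 0.58 (SE 0.323, adjusted p = 0.156 by edgeR), or -0.10 with library size alone.

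Cd1d1 stood at 342.7, 409.5, 339.6, 378.3 and 415.5 CPM in B6_DRA, against 492.6 and 447.4 CPM in B6_PBS. All B6_DRA libraries lay below both B6_PBS libraries by a small margin. It fell by 0.32 on the log2 scale (SE 0.116, adjusted p = 0.0449 by edgeR). With library size alone the estimate was -0.97 and still called (adjusted p = 0.0277). The call was kept in the fewest alternatives of the 6: it was lost without any 1 of the 5 B6_DRA libraries (adjusted p from 0.0523 to 0.0861), with housekeeping scaling (-0.24, adjusted p = 0.126), with the authors' scaled values (-0.23, adjusted p = 0.167), with DESeq2 (-0.33, adjusted p = 0.0522) and with a fit of the compared groups alone (-0.34, adjusted p = 0.0591).

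No call held with a single B6_PBS library, where the spread is taken from the other groups and the lone library is assumed to vary like them. Without B6_PBS 1 or without B6_PBS 2, 0 of 672 genes passed in edgeR, so none of the 9 did, with 190 and 244 genes at an unadjusted p under 0.05. The log2 fold changes kept their direction and were 1.71 and 1.88 for Irf4, 1.38 in both cases for Cd83, 1.06 and 1.30 for Xcr1, 1.0 and 1.11 for Flt3, 1.35 and 1.92 for Batf3 (1.63 with both libraries), and -0.27 and -0.42 for Cd1d1. Of 16 alternative settings and left-out libraries, the call was kept in 14 for Irf4, 14 for Cd83, 13 for Xcr1, 11 for Flt3, 8 for Batf3 and 5 for Cd1d1.

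**Figure D2:**
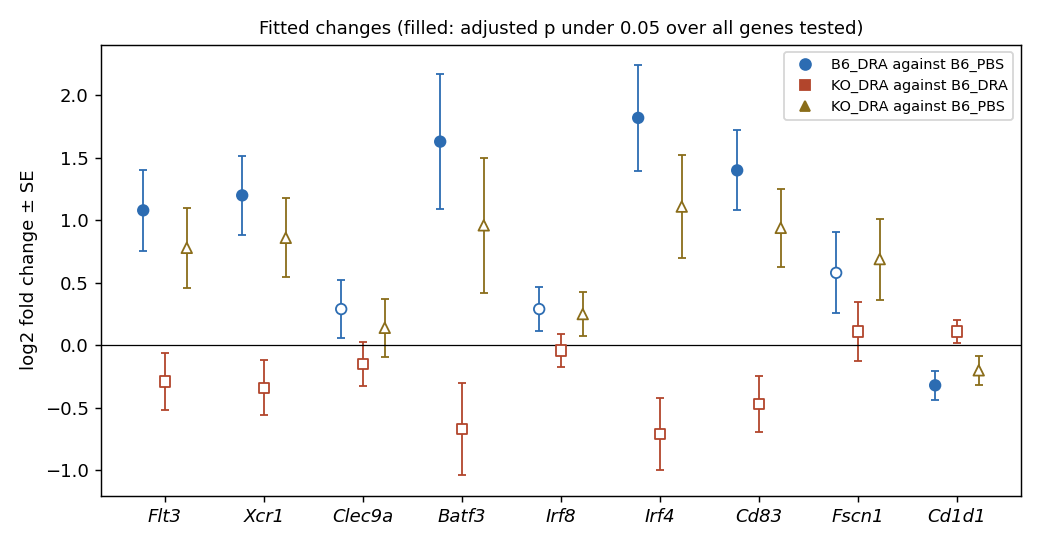
Fitted log2 fold change with its standard error (vertical axis) of the 9 genes in 3 comparisons, filled where the adjusted p over all genes tested is under 0.05. The filled points are those of B6_DRA against B6_PBS for Irf4, Batf3, Cd83, Xcr1, Flt3 and Cd1d1.

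The ratio of 2 probes within a library does not depend on how libraries are scaled to one another. It was used to set Irf4, Cd83 and Fscn1 against the cDC1 genes, on the log2 scale of raw counts and as a description without a test. Of the 12 such ratios, 9 had a higher mean in B6_DRA than in B6_PBS, and in 5 every B6_DRA library lay above both B6_PBS libraries. These 5 set Irf4 against Xcr1, Clec9a and Irf8, and Cd83 against Clec9a and Irf8. The 12 ratios reuse the same few genes and are not independent, and no share over other pairs of probes was worked out. With 2 B6_PBS libraries, groups often separate: for single genes, 59.7% of all tested did not overlap. Irf4 over Irf8 was -0.27, -0.76, -0.99, -0.70 and -0.17 in B6_DRA 3 to 7, against -2.04 and -2.12 in B6_PBS, a difference of means of 1.5. Cd83 over Irf8 was 0.69 ± 0.31 in B6_DRA and -0.40 ± 0.18 in B6_PBS (SD, n = 5 and 2). The shift was not one between classes as a whole. Irf4 over Batf3 overlapped between the groups, at 0.96 to 1.81 in B6_DRA and 0.90 to 1.30 in B6_PBS. Fscn1 over Batf3 was lower in all B6_DRA libraries, at 0.85 to 1.92, than in B6_PBS, at 2.09 and 2.26. Within the cDC1 genes, Xcr1 over Clec9a was -0.70 ± 0.29 in B6_DRA and -1.60 ± 0.17 in B6_PBS, and Batf3 over Irf8 was -1.89 ± 0.60 and -3.18 ± 0.22 in the same groups (SD, n = 5 and 2). Both were higher in all B6_DRA libraries than in both B6_PBS libraries. Between these 2 groups, Xcr1 thus rose relative to Clec9a, and Batf3 relative to Irf8.

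**Figure D3:**
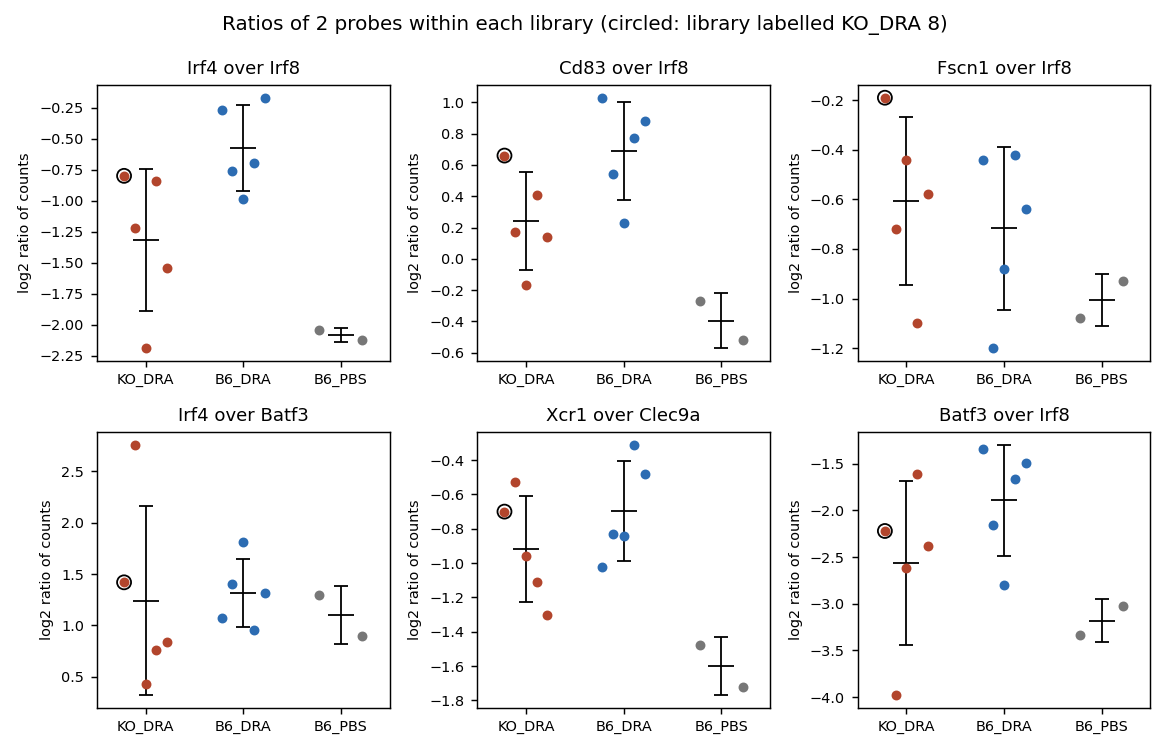
Log2 ratio of the raw counts of 2 probes (vertical axis) in every library of KO_DRA, B6_DRA and B6_PBS, with the mean and SD as bars and the library labelled KO_DRA 8 circled. Irf4 over Irf8 and Cd83 over Irf8 lie higher in all B6_DRA libraries than in B6_PBS, while Irf4 over Batf3 overlaps.

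Irf4 and Irf8 encode related factors tied to different types of conventional dendritic cell and moved unequally, so the sequences around their start sites are given for reference, from RefSeq on GRCm38.p6, 250 bases before to 50 after the start, plus strand. Capitals mark the letters TATAAA. For Irf8, which has 2 start sites in the table, the first is shown. The windows are chr13:30748983-30749282 for Irf4 and chr8:120736108-120736407 for Irf8.
Irf4: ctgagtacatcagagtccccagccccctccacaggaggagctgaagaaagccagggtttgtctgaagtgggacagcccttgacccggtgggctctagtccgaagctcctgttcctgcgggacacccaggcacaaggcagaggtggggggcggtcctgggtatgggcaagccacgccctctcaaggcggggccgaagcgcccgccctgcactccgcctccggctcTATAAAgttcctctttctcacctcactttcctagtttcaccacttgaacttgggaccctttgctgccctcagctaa
Irf8: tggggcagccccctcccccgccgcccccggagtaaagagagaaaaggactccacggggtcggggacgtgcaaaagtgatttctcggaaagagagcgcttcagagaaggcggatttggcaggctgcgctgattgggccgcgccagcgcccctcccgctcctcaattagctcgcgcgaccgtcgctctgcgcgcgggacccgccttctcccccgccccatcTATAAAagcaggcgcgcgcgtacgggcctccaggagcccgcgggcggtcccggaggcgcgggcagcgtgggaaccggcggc
TATAAA begins 26 bases before the Irf4 start and 31 bases before the Irf8 start, as it also does before the Fscn1 start. At any place and on either strand, 14.2% of 27025 promoters hold it. Of the 9 genes, 7 have a promoter sequence here, and 5 of these 7 hold it, Irf8 only in the first of its 2 windows. In Clec9a and Xcr1 it reads TTTATA, its form on the other strand, at -226 and -160 from the start. None of those 7 held TGANTCA, the AP-1 site, which 7.93% of all promoters hold on either strand. None held the forms searched of the ETS-IRF composite site (2.79% of all promoters), the interferon response site (3.49%), the ETS core (3.28%) or the NF-kB site (0.385%).

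Chil4-deficient mice given allergens were then set against wild type mice given allergens, to ask whether these genes differed between the genotypes. None of the 9 passed, where 0.0% of all 665 genes tested did (edgeR; 84 genes had an unadjusted p under 0.05, DESeq2 called 1 gene and limma-voom 0). Of the 9, 7 had a lower estimate, with a median log2 fold change of -0.29 beside 0.01 over all genes tested. Without Chil4-deficient mice given PBS, an altered allergen response and a genotype difference present without allergen cannot be told apart.

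Irf4 had the smallest p of the 9. It stood at 250.8, 178.0, 67.9, 172.2 and 157.6 CPM in KO_DRA 8 to 12, against 177.9 to 364.7 CPM in B6_DRA. The groups overlapped, 3 of 5 KO_DRA libraries lying below every B6_DRA library, and KO_DRA 10 lay below both B6_PBS libraries. The log2 fold change was -0.71 (SE 0.285, unadjusted p = 0.0283, adjusted p = 0.349 by edgeR). Cd83 stood at 686.3, 466.5, 275.6, 410.5 and 507.6 CPM in KO_DRA, against 413.5 to 751.7 CPM in B6_DRA. Its estimate was -0.47 on the log2 scale (SE 0.223), with adjusted p = 0.378 by edgeR. For both genes the library labelled KO_DRA 8 lay highest of its group.

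Without the library labelled KO_DRA 8, Irf4 fell by 0.91 (adjusted p = 0.0427 by edgeR) and Cd83 by 0.65 (adjusted p = 0.0488 by edgeR) on the log2 scale. That library was singled out by its Chil4 counts in these same data, and it lay highest of KO_DRA for both genes. Leaving it out therefore lowers the KO_DRA level of both, and these p-values are no independent evidence. The other 7 genes did not pass in that fit, in which 18.1% of 664 genes passed, 13.6% lower and 4.52% higher. The other estimates were then -0.52 for Flt3, -0.51 for Xcr1, -0.26 for Clec9a, -0.79 for Batf3, -0.08 for Irf8, -0.06 for Fscn1 and 0.15 for Cd1d1. Leaving out any other single library of the 2 groups brought none of the 9 past the threshold.

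Batf3 stood at 93.5, 26.2, 50.5, 101.4 and 88.2 CPM in KO_DRA, against 50.8 to 145.9 CPM in B6_DRA (log2 fold change -0.67, SE 0.369, adjusted p = 0.405 by edgeR). KO_DRA 9, at 26.2 CPM, was the lowest of all 12 libraries, while its Irf4 level was second in KO_DRA. Flt3 stood at 152.8, 99.3, 62.1, 63.7 and 109.5 CPM in KO_DRA, against 110.9 to 136.2 CPM in B6_DRA (log2 fold change -0.29, SE 0.228, adjusted p = 0.511 by edgeR). Its spread was wider in KO_DRA, with an SD of 37.4, than in B6_DRA, with an SD of 9.9 (n = 5 each), a difference in spread that was not tested. Xcr1 stood at 79.8, 63.7, 36.9, 44.8 and 45.4 CPM in KO_DRA, against 55.4 to 83.2 CPM in B6_DRA (log2 fold change -0.34, SE 0.22, adjusted p = 0.463 by edgeR). KO_DRA 10 to 12 lay below every B6_DRA library.

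The remaining 4 genes lay close together in the 2 genotypes. Clec9a was 100.5 ± 21.9 CPM in KO_DRA and 110.7 ± 13.5 CPM in B6_DRA. Irf8 was 385.7 ± 71.2 CPM in KO_DRA and 395.1 ± 34.8 CPM in B6_DRA. Fscn1 was 262.4 ± 88.5 CPM in KO_DRA and 243.8 ± 50 CPM in B6_DRA. Cd1d1 was 408.0 ± 26.1 CPM in KO_DRA and 377.1 ± 35.8 CPM in B6_DRA (SD, n = 5 each throughout). Their log2 fold changes were -0.15 (SE 0.177), -0.04 (SE 0.133), 0.11 (SE 0.236) and 0.11 (SE 0.0897).

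The log2 ratio of Irf4 over Irf8 was -0.80, -1.22, -2.19, -0.84 and -1.54 in KO_DRA 8 to 12, against -0.27, -0.76, -0.99, -0.70 and -0.17 in B6_DRA 3 to 7. Of the KO_DRA libraries, 3 lay below all of B6_DRA and 1, KO_DRA 10, also below both B6_PBS libraries. Of the 12 ratios of Irf4, Cd83 or Fscn1 over a cDC1 gene, 7 had a lower mean in KO_DRA than in B6_DRA. Cd83 over Batf3 and all 4 ratios of Fscn1 had a higher one, and the differences ran from -0.74 to 0.78. Irf4 over Irf8 was the only one tested, picked as the 2 lineage factors with earlier results known, and it had the largest drop of the 12, so its p is unadjusted and no independent evidence. Its means differed by -0.74 (two-sided exact permutation p = 0.0397; the design allows no p under 0.0079), and by -0.87 without the library labelled KO_DRA 8 (exact permutation p = 0.0317). The p was over 0.05 without any 1 of 7 other libraries: B6_DRA 3, 4, 6 or 7 and KO_DRA 9, 10 or 12 (differences of -0.52 to -0.79, exact permutation p = 0.0635 to 0.0794).

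Chil4-deficient mice given allergens were last set against wild type mice given PBS, groups that differ in both genotype and treatment and share libraries with the comparisons above. None of the 9 genes passed, where 3.01% of all genes tested passed, all of them higher. The log2 fold changes were 1.11 for Irf4 (SE 0.414, adjusted p = 0.137 by edgeR), 0.96 for Batf3 (SE 0.538), 0.94 for Cd83 (SE 0.314), 0.86 for Xcr1 (SE 0.317) and 0.78 for Flt3 (SE 0.321). Levels did not overlap for 4 genes, Cd83, Xcr1 and Flt3 being higher and Cd1d1 lower in all KO_DRA libraries, where 39.5% of all genes tested did not overlap, 23.0% higher and 16.5% lower. Without KO_DRA 10, Irf4 (1.31, adjusted p = 0.0273 by edgeR) and Cd83 (1.08, adjusted p = 0.0345 by edgeR) passed. In that fit 11.9% of genes passed, 10.3% higher and 1.66% lower. KO_DRA 10 was the lowest KO_DRA library for both genes. Leaving it out therefore raises the KO_DRA level of both, and these p-values are no independent evidence. Without the library labelled KO_DRA 8 none of the 9 passed, where 1.36% of all 664 genes tested did. The estimates were then 0.90 for Irf4, 0.84 for Batf3, 0.76 for Cd83, 0.69 for Xcr1, 0.56 for Flt3, 0.52 for Fscn1, 0.20 for Irf8, 0.03 for Clec9a and -0.17 for Cd1d1.

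Other genes of dendritic cells were read in B6_DRA against B6_PBS from lists that leave out the 9 members; some genes sit in more than 1 list. The counts stand beside the 24.1% of all genes tested that rose and the 17.7% that fell. Of 7 other genes tied to cDC1, 2 rose and 2 fell. Cxcl9, an interferon-induced chemokine, rose 3.76-fold and Id2, a transcriptional regulator that cDC1 need, 1.33-fold. Tlr3, the sensor of double-stranded RNA that cDC1 carry, fell by 0.37 on the log2 scale and Cd36, a scavenger receptor that endothelium and macrophages also bear, by 0.46.

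Of 9 genes of cDC2 and monocyte-derived cells, 6 rose and none fell. Sirpa, a cDC2 and macrophage surface protein, rose 1.76-fold and Itgam, an integrin chain, 2.36-fold, while Clec7a, a receptor for fungal glucan, rose 3.57-fold. Cd209e, a C-type lectin gene, stood at 53.1 to 136.2 CPM in B6_DRA and at 1.93 and 3.79 CPM, below background, in B6_PBS. Of 11 genes of conventional dendritic cells at large, their growth factors and class II presentation, 8 rose and none fell. Itgax, the CD11c chain, rose 4.78-fold and Csf2ra, a receptor chain for GM-CSF, 2.80-fold. The class II genes H2-Aa, H2-Ab1 and H2-Eb1, which B cells and macrophages also use, rose 2.25-fold to 2.5-fold.

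Of 23 genes of maturation and migration, 9 rose and 1 fell. Pdcd1lg2, the PD-L2 ligand gene, rose 3.46-fold, Ccl17, a chemokine for T cells bearing CCR4, 5.03-fold, and the costimulator genes Cd80 and Cd86 2.77-fold and 1.94-fold. Il4i1, an amino acid oxidase gene, and Il6, a cytokine gene, also passed, but only 1 of the 2 B6_PBS libraries was above background for each, at 1.4 and 1.09 times it, so no fold is given. Il4i1 stood at 53.0 to 139.6 CPM in B6_DRA and at 7.58 and 17.4 CPM in B6_PBS, and Il6 at 13.9 to 38.3 CPM in B6_DRA and at 7.58 and 13.5 CPM in B6_PBS. Of 4 plasmacytoid cell genes, Ccr9 and Tlr7 rose 1.93-fold and 1.87-fold and Irf7 fell by 0.72 on the log2 scale. Of 4 genes tied to CD1d, Cxcr6, a receptor of natural killer T and other T cells, rose 2.19-fold and Apoe, which carries lipid, 1.47-fold. The medians of the 6 lists were 0.20 for other cDC1 genes, 0.82 for cDC2, 1.17 for conventional dendritic cells at large, 0.66 for plasmacytoid cells, 0.29 for maturation and 0.84 for the CD1d list, beside 0.01 over all genes. In KO_DRA against B6_DRA no gene of these lists passed. Without the library labelled KO_DRA 8, where 13.6% of all genes fell and 4.52% rose, 5 of the 9 cDC2 and monocyte-derived genes fell (Sirpa, Cd209e, Itgam, Cd14 and Clec7a), as did 3 of the 23 maturation genes (Cd80, Pdcd1lg2 and Ccl17) and Itgax, while Dpp4 and Il12a rose. In the whole fit, in KO_DRA against B6_PBS H2-Aa, H2-Ab1, H2-Eb1, Cd74 and Cxcr6 rose, 1.89-fold to 2.12-fold, where 3.01% of all genes rose. H2-Ab1 and H2-Eb1 were still called without the library labelled KO_DRA 8, where 1.36% of all genes passed.

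**Figure D4:**
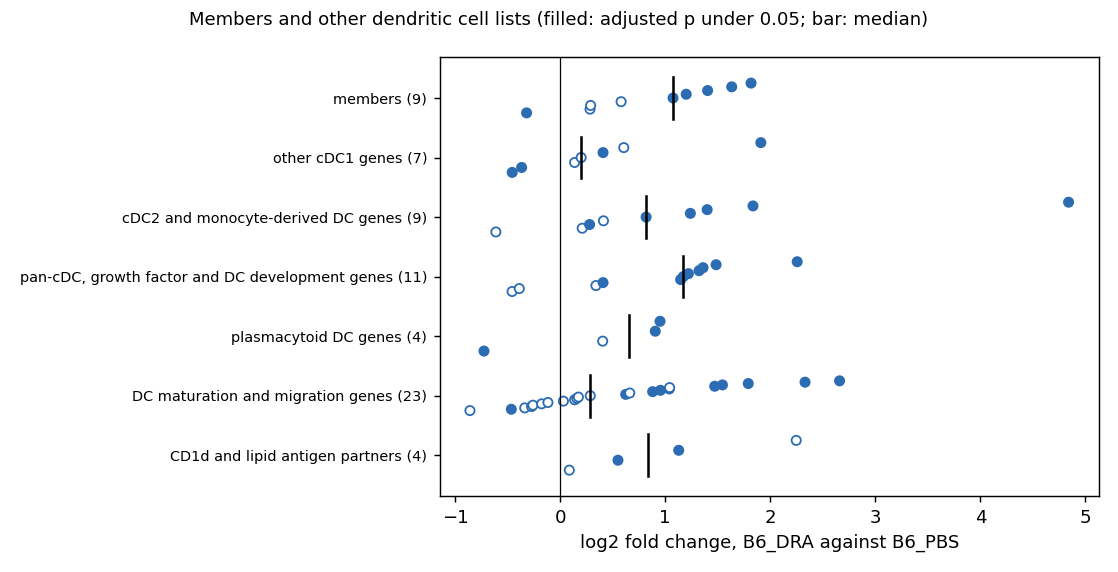
Fitted log2 fold change of B6_DRA against B6_PBS (horizontal axis) for each measured gene of the member list and 6 other dendritic cell lists, with the number of genes in brackets, filled where the adjusted p is under 0.05 and with a bar at the median. Medians lie between 0.20 and 1.17, and the point at 4.84 is Cd209e, whose B6_PBS level is below background.

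Markers of other cells were read in the same libraries, beside the same 24.1% of all genes that rose and 17.7% that fell in B6_DRA against B6_PBS. Of 14 measured monocyte and interstitial macrophage markers, 10 rose in B6_DRA and 1, Ly6c1, fell. Their summed level was 16350 to 27040 CPM in KO_DRA, 17610 to 25380 CPM in B6_DRA and 15230 to 15930 CPM in B6_PBS. Ly6c1, which went the other way from the 10, is a large part of this sum. It stood at 5601 to 7212 CPM in B6_DRA and at 8667 to 9495 CPM in B6_PBS. Of the B cell list, Irf4 aside, 2 markers were on the panel and neither passed. Their summed level, mostly Ms4a1, which encodes CD20, was 390.1 to 1257 CPM in KO_DRA, 431.2 to 780.2 CPM in B6_DRA and 430.3 and 446.3 CPM in B6_PBS. Of 5 T cell markers 2 rose, and all 4 endothelial markers fell, with a summed level of 6886 to 15370 CPM in KO_DRA, 7073 to 12190 CPM in B6_DRA and 15580 and 18670 CPM in B6_PBS. Of 7 alveolar macrophage markers 2 rose, and of 6 eosinophil markers 5. Of 6 neutrophil markers none passed. Epx of the eosinophil list and Elane of the neutrophil list were below background in every library, and neither is among the markers counted. In KO_DRA against B6_DRA no marker passed. Without the library labelled KO_DRA 8, 13.6% of all genes fell in KO_DRA against B6_DRA and 4.52% rose. There 9 of the 14 monocyte and interstitial macrophage markers and 4 of the 6 eosinophil markers fell. Of the 4 endothelial markers 2 rose. The left-out library had the highest monocyte and macrophage sum and eosinophil sum of KO_DRA, and the lowest endothelial sum. Leaving it out therefore moves KO_DRA in these directions, and these calls are no independent evidence. The monocyte and macrophage sum was then at most 19640 CPM in KO_DRA. The part of these cells in the levels of the 9 genes, Batf3 among them, was not tested.

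Across the 12 libraries, Irf4 and Cd83 kept the closest course of any pair of the 9 genes. Pearson's r of their log2 CPM was 0.968, and 0.946 over the 10 libraries of allergen-treated mice. These values describe libraries that share treatment and scaling, and carry no p. Flt3 and Xcr1 had an r of 0.914 over 12 and 0.838 over 10 libraries. Batf3 and Irf8, partners in cDC1 development, had an r of 0.394 over 12 and 0.147 over 10 libraries, and Xcr1 and Clec9a an r of 0.634 and 0.624. Over the 11 libraries without the one labelled KO_DRA 8, r was 0.969 for Irf4 and Cd83, 0.902 for Flt3 and Xcr1, 0.373 for Batf3 and Irf8, and 0.573 for Xcr1 and Clec9a. Cd1d1 ran opposite to the other 8 genes over the 12 libraries, with r from -0.711 for Flt3 to -0.299 for Irf8, but over the 10 its r with Irf8 was 0.09.

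The genes of the panel closest to each, over 12 libraries, were mostly outside the 9. For Irf4 they were Btk, a signalling kinase of B cells and myeloid cells (r = 0.972), Cd83 and Tnfrsf9 (0.945). For Cd83 they were Fcgr2b, the inhibitory Fc receptor (0.973), Btk (0.972) and Pik3cg (0.971). For Flt3 they were Icos (0.962), Adora3 (0.949) and Tmem173 (0.926), and for Xcr1 the eosinophil gene Prg2 (0.945), Tmem173 (0.944) and Selplg (0.938). Batf3 ran closest to Tlr4 (0.929), Igf1 (0.925) and Adam8 (0.901). Fscn1 ran closest to Ccl19, a chemokine that draws mature dendritic cells (0.862), Icos (0.833) and Ccl22, a chemokine that mature dendritic cells make (0.813). Clec9a ran closest to Gch1 (0.853), Tnfrsf1b (0.828) and Rgs16 (0.811), and Irf8 to Tmem173 (0.859), Ccr9 (0.849) and Alox5ap (0.838). Cd1d1 ran closest to Ctnnb1 (0.847), C5ar1 (0.779) and Ly6c1 (0.747). Most of these r were lower over the 10 libraries of allergen-treated mice, the least being 0.559 for Cd1d1 and Ly6c1. A few were higher, among them 0.956 for Clec9a and Tnfrsf1b.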

How the data were processed

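Whole lung RNA was run on an nCounter innate immune panel, per the labels. The table the authors deposited gives raw counts for 734 endogenous, 20 housekeeping, 8 negative and 6 positive control probes. A second deposited table holds a signal, which is those counts scaled by the authors with 1 factor for each library. R 4.2.0, edgeR and limma are named in the submitters' processing notes, with no roles. How scanner images became counts is not given here.

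Groups came from the sample titles. Raw counts of endogenous and housekeeping probes, which restart the table's alphabet, were fitted with edgeR 4.0.16 in R 4.3.3: filterByExpr (minimum count 10, minimum total 15), TMM, and 1 quasi-likelihood model of the 12 libraries, with Benjamini-Hochberg adjustment over 665 endogenous genes. SE was taken as the absolute log2 fold change divided by the root of F. Log2 CPM used a prior count of 2. Alternatives used limma 3.58.1, DESeq2 1.42.0, other scalings, filters and sample sets; limma used log2(scaled value + 1). Permutations used scipy 1.17.1. The fit was tested on simulated data.

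Members and lists were chosen with earlier results of these data known. All 9 members are named, with up to 6 genes per list by p and the 3 genes closest to each member. The labels do not say whether libraries of 1 group were prepared apart, and p-values cover only the spread among them, which may be technical. Counting precision is set by counts of 14 to 372 for the members.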

Additional observations from a re-analysis of the deposited data

How the results depend on the processing

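Of the 9 genes, 6 were called in B6_DRA against B6_PBS. The count was 3 with library size alone, and it lay between 0 and 5 when 1 library was left out, 0 without either B6_PBS library. It was 5 or 6 under each of the 8 other alternatives. In KO_DRA against B6_DRA the count of 0 held under every alternative except without the library labelled KO_DRA 8 (range 0 to 2 over left-out libraries), and in KO_DRA against B6_PBS except without KO_DRA 10 (range 0 to 2). Over left-out libraries the Irf4 over Irf8 difference ran from -0.52 to -0.87, and with the negative control mean subtracted it was -0.77. With 4 libraries against 5 fewer permutations exist, so a lost call there does not by itself show a smaller difference. In some of those fits the difference did shrink, to as little as -0.52 from -0.74 with all libraries. No call of a member reversed in direction. The signs of uncalled estimates turned under 1 or more alternatives for Clec9a, Irf8 and Fscn1. Over all genes, the B6_DRA against B6_PBS calls were 160 higher and 118 lower, 57 and 222 with library size alone, 163 and 72 with housekeeping scaling, 169 and 61 with the authors' scaled values, and 138 and 161 with library size without Chil3, Chil4 and Retnla, which moved the median of all genes by -0.16. They numbered 0 without either B6_PBS library and 128, 176, 345, 158 and 136 in all without B6_DRA 3, 4, 5, 6 and 7. In KO_DRA against B6_PBS the 20 calls became 4 with library size alone, 56 with DESeq2, 13 with limma-voom and with library size without those 3 genes, 0 with the compared groups alone and 0 to 79 when 1 library was left out. No paired analysis was possible because replicate numbers run from 1 to 12 and no 2 groups share one. The low counts of Xcr1 and Batf3 limit what their values can show.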
